A study of Mus musculus with 3 samples.

Results

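The LY6 family members Ly6a, Ly6c1, Ly6c2, Ly6d, Ly6e, Ly6g and Ly6k, together with Thy1, were followed in polyadenylated RNA from mouse activated regulatory T cells. The 8 genes were chosen by name, with earlier results of these data known. They were matched through the GENCODE M21 annotation to the deposited gene tables, which hold 55536 genes, and all 8 were found. The cells were primary cells from a male mouse of 9 weeks, and the strain name lists 3 alleles, Foxp3GFP-DTR, CD4CreERT2 and R26tdTomato. Foxp3 is the factor that defines regulatory T cells, and the labels give no treatment. All 3 libraries belong to 1 group: the labels number them as technical replicates 1, 2 and 3 of a single biological replicate, and they are called libraries 1, 2 and 3 here. The series holds no resting or untreated cells for a contrast, so the results are levels and differences among libraries. Each SD is taken over the 3 libraries (n = 3). It measures how libraries of the same biosample vary, which may be technical variation alone. The p-values set differences between these same libraries against counting error only.

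LY6 proteins are small surface proteins built on the LY6/uPAR fold, a compact domain whose loops are held by disulphide bonds, and most are tied to the membrane by a glycosylphosphatidylinositol (GPI) lipid anchor. Many of the mouse genes sit side by side in a cluster on chromosome 15, and antibodies to their products, such as Sca-1, Ly-6C and Ly-6G, are long-standing tools for sorting stem cells, monocytes, neutrophils and activated or memory T cells. Thy1 encodes CD90, a GPI-anchored protein of the immunoglobulin superfamily that marks mouse T cells. It does not carry the LY6 domain and lies on chromosome 9.

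Ly6c1 and Ly6c2, the copies that together encode the Ly-6C antigen, are shown first because their sequences set how well their reads could be told apart. Their coding sequences, 393 bases each without the stop codon in the leading transcripts Ly6c1-201 and Ly6c2-201, differed at 9 bases and were 97.7% identical. Of those 9 bases, 6 lay in the first of the 3 coding exons and 3 in the last, and each fell in a codon of its own. The first coding exon is at chr15:75048442-75048511 for Ly6c1 and at chr15:75111598-75111667 for Ly6c2, both on the minus strand of mm10. The sequences, from the GENCODE M21 transcripts, run 5′ to 3′ with the bases that differ between the copies in capitals.
Ly6c1 first coding exon: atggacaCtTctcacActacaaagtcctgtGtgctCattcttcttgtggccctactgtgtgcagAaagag
Ly6c2 first coding exon: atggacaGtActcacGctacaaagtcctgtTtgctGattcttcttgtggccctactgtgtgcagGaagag

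The second coding exon, 117 bases at chr15:75047353-75047469 for Ly6c1 and at chr15:75110511-75110627 for Ly6c2, was identical in the copies and is shown once.
Ly6c1 and Ly6c2 second coding exon: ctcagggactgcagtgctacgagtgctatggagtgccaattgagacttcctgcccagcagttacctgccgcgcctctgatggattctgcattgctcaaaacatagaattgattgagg

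The last coding exon is at chr15:75045405-75045610 for Ly6c1 and at chr15:75108546-75108751 for Ly6c2, with differing bases again in capitals.
Ly6c1 last coding exon: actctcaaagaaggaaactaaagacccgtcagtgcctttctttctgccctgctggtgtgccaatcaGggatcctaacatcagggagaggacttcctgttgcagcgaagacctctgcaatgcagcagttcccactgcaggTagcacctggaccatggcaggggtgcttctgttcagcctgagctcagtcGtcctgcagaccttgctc
Ly6c2 last coding exon: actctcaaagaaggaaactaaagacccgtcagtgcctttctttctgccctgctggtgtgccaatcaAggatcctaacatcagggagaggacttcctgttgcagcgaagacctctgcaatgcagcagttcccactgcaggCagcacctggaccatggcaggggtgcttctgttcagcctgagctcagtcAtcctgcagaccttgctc

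The longest stretch without a difference ran for 188 bases, from coding base 66 to coding base 253. Of the 344 windows of 50 bases in the coding sequence, 162 held no differing base. That window length is the median of length minus effective length in the gene table of library 1, plus 1. Over the whole transcript, 292 of 795 windows of Ly6c1-201 (36.7%) and 255 of 773 windows of Ly6c2-201 (33.0%) also occurred in a transcript of another gene on either strand, 252 of them in each case in the other copy. For Ly6a-201 the share was 8.05%, with Ly6i as the main partner (31 windows). Ly6k-202 shared 86 of its 563 windows (15.3%), all with Gm17189, an antisense gene on the opposite strand. For Ly6g-202, 4 of 892 windows occurred in another gene, and for the most counted transcripts of Ly6d, Ly6e and Thy1 none did.

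The sequences before the start sites of the copies aligned with lower identity than their coding sequences. The 250 bases before the RefSeq start site aligned with 57.7% identity over 284 columns, where a column with a gap counts as not identical. Each window is placed by the start site of its own gene. The stretch that opens the Ly6c2 window lies further inside the Ly6c1 window, and this offset adds gap columns. The windows shown are RefSeq sequences of GRCm38.p6, at chr15:75048838-75049087 for Ly6c1 and chr15:75111972-75112221 for Ly6c2, minus strand, with the motif TATAAA in capitals.
Ly6c1 upstream: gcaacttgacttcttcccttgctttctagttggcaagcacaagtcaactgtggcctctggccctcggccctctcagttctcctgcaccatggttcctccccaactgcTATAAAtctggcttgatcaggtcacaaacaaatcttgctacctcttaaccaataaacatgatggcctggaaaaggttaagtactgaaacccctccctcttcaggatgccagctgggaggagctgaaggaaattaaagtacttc
Ly6c2 upstream: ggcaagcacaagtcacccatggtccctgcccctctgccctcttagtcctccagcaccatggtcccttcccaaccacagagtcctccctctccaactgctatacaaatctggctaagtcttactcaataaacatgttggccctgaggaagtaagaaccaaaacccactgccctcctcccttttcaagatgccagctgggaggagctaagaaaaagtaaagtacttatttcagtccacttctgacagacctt
The window searched runs from 250 bases before the start site to 50 after it, on both strands, and the motifs searched were TATAAA and TTCNNNGAA. TATAAA was present once in the windows of Ly6c1 and Ly6g and absent from that of Ly6c2, and 13.6% of all 32851 promoter windows held it. The search took no account of position. In Ly6c1 the motif lies nearer the middle of the 250 bases than the start site, and no role of it was tested. TTCNNNGAA, in 8.30% of all windows, was in none of these 3.

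The levels of the members spanned a wide range, from one of the most abundant messages of the cell to a gene with almost no read. Levels are given in TPM, which scales reads to transcript length and library depth, so that genes can be compared. At 1 TPM or more in every library, 7 of the 8 members were detected, beside 10425 of 22028 protein-coding genes (47.3%). The median over the members was 83.9 TPM, beside 0.810 TPM over the protein-coding genes. Because the members were chosen with earlier results of these data known, these contrasts may in part reflect that choice.

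**Figure D1:**
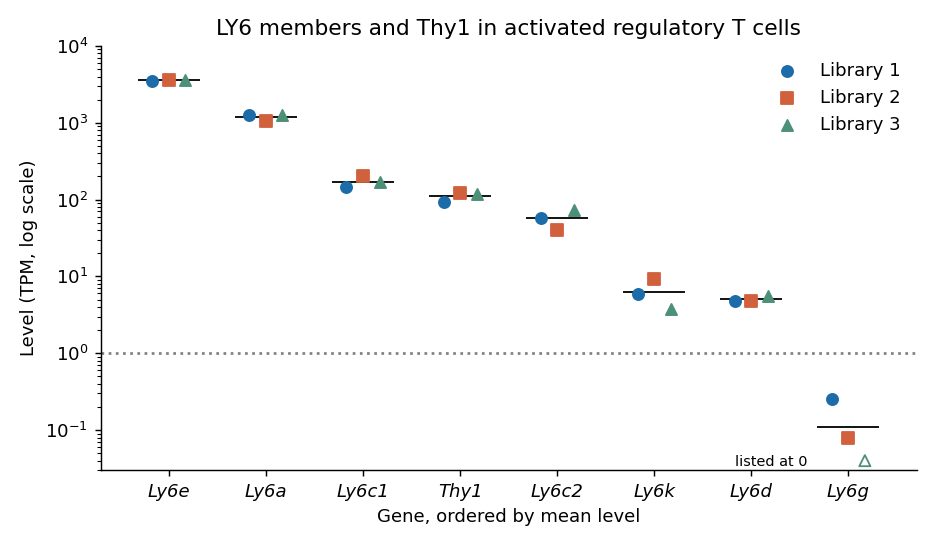
Level of each member in TPM (log scale) in libraries 1, 2 and 3, with a short line at the mean and a dotted line at 1 TPM. Ly6e and Ly6a stand above 1000 TPM, 3 genes lie between 40.35 and 203 TPM, Ly6k and Ly6d are in the single digits, and Ly6g is below 1 TPM and listed at 0 in library 3.

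Ly6e, an interferon-inducible LY6 protein also known as thymic shared antigen 1, had 3491, 3639 and 3551 TPM in libraries 1, 2 and 3. Its mean of 3560 ± 74.3 TPM (SD, n = 3) ranked 14th among protein-coding genes. It was the steadiest member, with a coefficient of variation of 2.09%. Ly6e (ENSMUSG00000022587.14) lies on the plus strand of chromosome 15 at 74955051 to 74959905 of mm10, and its 49453, 54164 and 45011 estimated counts were whole numbers in every library.

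Ly6a, which encodes the stem cell antigen Sca-1 and is induced by interferons and on activated lymphocytes, had 1254, 1056 and 1271 TPM. Library 2 was the lowest, and the mean was 1193 ± 120 TPM, rank 86. Ly6e exceeded Ly6a in each library, by 2.78 to 3.45 times. Ly6a (ENSMUSG00000075602.10) is on the minus strand at 74994877 to 74998031, and its 12786, 11280 and 11559 estimated counts carried a posterior SD, the quantifier's own uncertainty from dividing reads among genes, of 2.23 to 3.47 counts.

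Ly6c1 had 144.76, 203.12 and 167.21 TPM, a mean of 172 ± 29.4 TPM, with library 2 the highest. Ly6c2 had 57.98, 40.35 and 73.32 TPM, a mean of 57.2 ± 16.5 TPM, with library 2 the lowest. The copies thus stood at opposite ends in the same library, and Ly6c1 was the higher of the pair in every library. Ly6c1 (ENSMUSG00000079018.10) is on the minus strand at 75044018 to 75048830 and Ly6c2 (ENSMUSG00000022584.14) on the same strand at 75108158 to 75111970.

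Thy1 had 92.9, 122 and 117 TPM in libraries 1, 2 and 3, a mean of 111 ± 15.5 TPM, and library 1 was the lowest. In TPM, Ly6c1 was above Thy1 by 1.43 to 1.67 times within a library, and Thy1 above Ly6c2 by 1.59 to 3.02 times. In the second gene table, a separate set of whole-number counts on the GENCODE M4 annotation, Thy1 was above Ly6c1 in every library instead, also per base. The TPM ranges of these 3 genes did not overlap, since the lowest Ly6c1 value (145 TPM) exceeded the highest Thy1 value (122 TPM) and the lowest Thy1 value (92.9 TPM) the highest Ly6c2 value (73.3 TPM). Thy1 (ENSMUSG00000032011.5) is on the plus strand of chromosome 9 at 44043384 to 44048579.

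Ly6k and Ly6d were low but counted in every library. Ly6k, known in mouse from testis and sperm, had 43.99, 74 and 26 estimated counts, or 5.91, 9.22 and 3.76 TPM, with library 2 the highest and library 3 the lowest. Ly6d, known from B-lineage progenitors and squamous epithelium, had 44, 46 and 46 estimated counts, or 4.79, 4.78 and 5.61 TPM. The 2 genes were not ordered beyond their spread: Ly6k was above Ly6d in 2 of 3 libraries, and its mean of 6.30 ± 2.75 TPM overlaps the 5.06 ± 0.476 TPM of Ly6d. Ly6k (ENSMUSG00000044678.11) is at 74796874 to 74799986 and Ly6d (ENSMUSG00000034634.7) at 74762056 to 74763620, both on the minus strand of chromosome 15.

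Ly6g, which encodes the neutrophil antigen Ly-6G, had 2, 1 and 0 estimated counts. A count of 0 allows up to 3 counts, or 0.162 CPM (counts scaled to library size) in library 3, for counting error only. Ly6g (ENSMUSG00000022582.4) is on the plus strand at 75155240 to 75159126. The neutrophil markers were at the same floor: 0 of 10 reached 1 TPM in every library, the 2 highest were S100a9 (0, 3 and 0 counts) and Csf3r (6, 1 and 2 counts), and S100a8, Ngp, Retnlg and Camp had no count. The list summed to 0.620, 0.680 and 0.0800 TPM.

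The 7 LY6 members lie in a stretch of chromosome 15 from Psca to Gpihbp1, at 74714839 to 75599481, in which the annotation places 50 genes. Of these, 7 reached 1 TPM in every library: Ly6d, Ly6k, Ly6e, Ly6a, Ly6c1, Ly6c2 and Gm39556, a long noncoding RNA gene that starts 25.6 kb before Ly6e and had 11.5, 8.09 and 9.58 TPM. None of the 20 pseudogenes did, and 27 of the 50 genes had no count in any library.

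**Figure D2:**
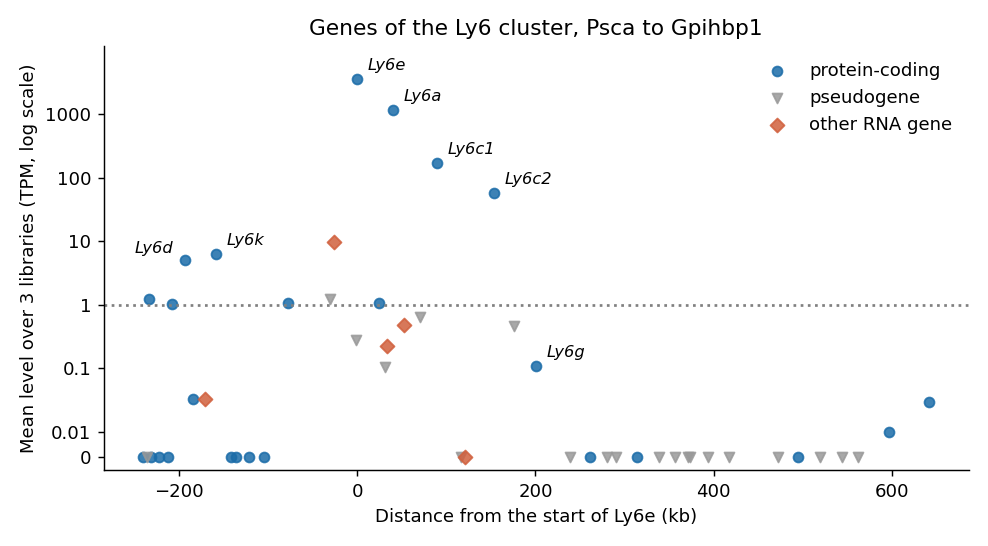
Mean level over 3 libraries in TPM (log scale, genes with no count drawn at the tick marked 0) of each annotated gene from Psca to Gpihbp1, against the distance of its start from the start of Ly6e in kb. The 4 members above 50 TPM (Ly6e, Ly6a, Ly6c1 and Ly6c2) start within 153 kb of the start of Ly6e, with levels of 3560, 1193, 172 and 57.2 TPM.

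The rest of the LY6/uPAR family, as listed, was nearly silent. Members and list were chosen with earlier results of these data known, so their contrast may in part reflect that choice. Of 41 listed genes, 36 were in the annotation, and 1 of them reached 1 TPM in every library. This was Ly6g5b, a gene of the major histocompatibility region, with 1.91, 3.07 and 1.45 TPM. The other 35 comprised 20 with no count and 15 with counts below that threshold in at least 1 library, and the list median was 0 TPM.

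The labelled cell type was checked against its markers. All 6 T cell markers and all 5 regulatory T cell markers reached 1 TPM in every library. Trac (3180 ± 250 TPM) and Lck (1491 ± 121 TPM) were highest among the T cell markers, and Tnfrsf18 (734 ± 55.8 TPM) and Ikzf2 (371 ± 24.0 TPM) among the regulatory T cell markers. The library totals were 20783676, 21206219 and 18496690 estimated counts.

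Several members are also known from other cell types, whose markers ran from no count, as for Igll1, to 42.5 TPM for Ccr2. In bulk RNA, fewer cells of a type and less RNA per cell cannot be told apart. For Ly6c2, a gene of inflammatory monocytes, 5 of 7 monocyte or macrophage markers reached 1 TPM in every library, led by Ccr2 (42.5 ± 2.02 TPM), which activated T cells also express, and Lyz2 (15.03 ± 2.04 TPM). Their summed level was 72.94, 62.93 and 79.36 TPM, and library 2, where Ly6c2 was lowest, was the lowest for 7 of the 7 in TPM and for 5 of the 7 in CPM, counts scaled to library size alone. Csf1r had 9.14, 5.48 and 9.66 TPM and Adgre1 3.68, 1.86 and 4.69 TPM, both named after their values were seen. Itgam and Ccr2 of the same list varied less. Itgam had 1.09, 1.07 and 1.15 TPM, and Ccr2 had 85.4, 86.6 and 92.3 CPM, lowest in library 1. The part of such cells in the level of Ly6c2 was not tested. Library 2, where Ly6a was lowest, was also the lowest for 5 of the 6 T cell markers in TPM and for 6 of the 6 in CPM. In TPM it was the lowest as well for 14 of 29 genes of GPI anchor synthesis and 8 of 13 other GPI-anchored proteins. It was the lowest for 6 of 18 interferon-responsive genes and 1 of 5 regulatory T cell markers. The share over all genes is not given here, so these counts cannot be read as particular to a cell type.

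For Ly6c1, which endothelium also expresses, no endothelial marker of 7 reached 1 TPM in every library, and the highest, Egfl7 and Vwf, had 10, 6 and 8 and 7, 4 and 1 counts. For Ly6d, the B cell progenitor markers Vpreb1 and Dntt led their list of 4 at 2.77 ± 0.850 and 0.633 ± 0.0929 TPM, and Igll1 had no count. B cell markers reached 1 TPM in every library in 4 of 6 cases, led by Cd79b (38.7 ± 0.981 TPM) and Cd79a (6.61 ± 1.32 TPM), and the list summed to 48.46, 49.55 and 53.78 TPM. Of the 4 epithelial markers, Krt5, Krt14 and Krt8 had no count and Epcam had 3.45 ± 0.922 TPM. The part of any of these cell types in the low level of Ly6d was not tested.

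The remaining marker lists were low or mixed. Of the CD8 T cell markers, Cd8b1 had 17.7, 21.73 and 22.47 TPM and Cd8a 0.79, 2.56 and 1.03 TPM. Plasma cell markers were led by Xbp1 (49.98 ± 13.5 TPM) and Prdm1 (29.6 ± 2.24 TPM), both of which activated lymphocytes use, and Tnfrsf17 had no count. Plasmacytoid dendritic cell markers were led by Ccr9 (6.82 ± 0.847 TPM) and Tcf4 (6.19 ± 0.800 TPM), and NK cell markers by Klrb1c (2.32 ± 0.637 TPM) and Klre1 (0.0733 ± 0.0702 TPM). Of the fibroblast or neuron markers, Col1a2 (0.387 ± 0.0208 TPM) and Col1a1 (0.340 ± 0.0917 TPM) were highest, and Pdgfra, Pdgfrb and Snap25 had no count.

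Whole and fractional estimated counts were about as frequent among the members as among all tested genes. Counts less than 0.01 from a whole number in every library were found for 4 of the 8 members (Ly6d, Ly6e, Ly6g and Thy1), beside 51.6% of all tested genes. Ly6g is whole on 3 counts in all. Ly6a, Ly6c1 and Ly6c2 had fractional counts. Ly6k was off by 0.01 in library 1, where Gm17189, which overlaps it on the opposite strand, had 1.01 counts. Whether the counting used strand is not given in the sources used here, so reads of Ly6k and Gm17189 may not be fully told apart.

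Ly6c1 had 1500, 2213 and 1547 estimated counts with posterior SDs of 14.9, 14.3 and 15.9, and Ly6c2 had 599, 447 and 677 with posterior SDs of 14.6, 14.4 and 15.9. The shift between libraries was many times the posterior SD, which covers the quantifier's own uncertainty only. Whether a consistent error in dividing reads between the copies had a part in the shift was not tested. The ratio of Ly6c1 to Ly6c2 in TPM was 2.50, 5.03 and 2.28 in libraries 1, 2 and 3. Its mean on the log2 scale was 1.61 ± 0.63, and without library 2 it was 1.25. Library 2 alone stood apart. In the second gene table Ly6c1 had 242, 288 and 257 counts and Ly6c2 117, 89 and 122, a ratio of 2.07, 3.24 and 2.11, so library 2 was at the same ends there. Neither gene was called in that table (chi-square adjusted p = 0.205 for Ly6c1 and 0.0681 for Ly6c2).

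**Figure D3:**
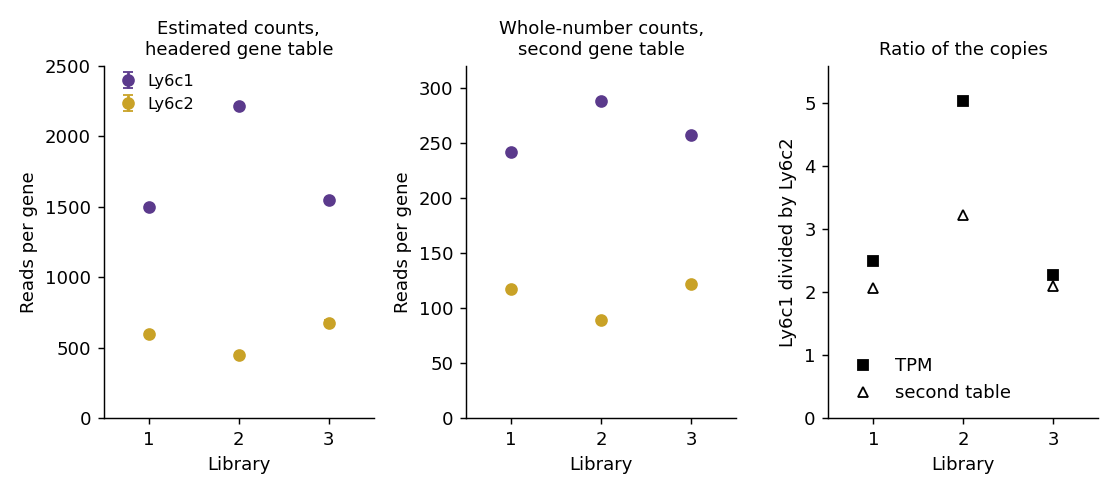
Reads of Ly6c1 and Ly6c2 in libraries 1, 2 and 3: estimated counts (left, bars are the posterior SD and mostly smaller than the points), whole-number counts of the second table (middle), and the ratio of Ly6c1 to Ly6c2 in both (right). In library 2 Ly6c1 is highest and Ly6c2 lowest in each table, and the ratio reaches 5.03 in TPM and 3.24 in the second table.

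Libraries differed beyond counting noise for most members, as for much of the transcriptome. A chi-square test of homogeneity against library totals, with Benjamini-Hochberg adjustment over 14641 genes, called 6 of the 7 members with enough counts (all but Ly6g, which had 3 counts in all, below the minimum of 30), against 44.9% of all genes tested and 55.4% of the 9956 genes with a mean count of at least 100. Of the 5 members with such a count, all 5 were called. Larger counts make smaller differences detectable, so the size of the spread is given beside each call.

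Ly6e differed by 1.07 times between its highest and lowest library in CPM (2379, 2554 and 2433 CPM in libraries 1, 2 and 3, chi-square adjusted p = 7.11e-29), and 19.7% of genes with a mean count of 100 or more had a smaller ratio. Ly6a differed by 1.17 times (615, 532 and 625 CPM, chi-square adjusted p = 1.47e-38), beside a median of 1.15 over those genes and of 1.10 over the 283 genes with a mean count of 10000 or more. Its call rested on library 2: without it, the adjusted p of the same chi-square test was 0.401.

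Thy1 differed by 1.35 times (40.4, 54.4 and 49.3 CPM, chi-square adjusted p = 2.68e-09), and without library 1 its adjusted p was 0.0761. Ly6c1 differed by 1.45 times (72.2, 104 and 83.6 CPM, chi-square adjusted p = 4.46e-27) and Ly6c2 by 1.74 times (28.8, 21.1 and 36.6 CPM, chi-square adjusted p = 1.30e-17). For Ly6c1 90.2% and for Ly6c2 97.5% of genes with a mean count of 100 or more had a smaller ratio. Both were called whichever library was left out. With the 2 copies summed, an alternative chosen after the data were seen, the level was 101, 125 and 120 CPM and the sum was still called (chi-square adjusted p = 1.53e-12).

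Ly6k had the widest spread of the tested members, 2.48 times (2.12, 3.49 and 1.41 CPM, chi-square adjusted p = 0.000341), on 144 counts in all, and was not called without library 2 (adjusted p = 0.221). Ly6d was not called (2.12, 2.17 and 2.49 CPM, chi-square adjusted p = 0.779) on 136 counts in all. The highest library was library 2 for Ly6c1, Ly6e, Ly6k and Thy1 and library 3 for Ly6a, Ly6c2 and Ly6d, so no library was the highest for all of them.

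**Figure D4:**
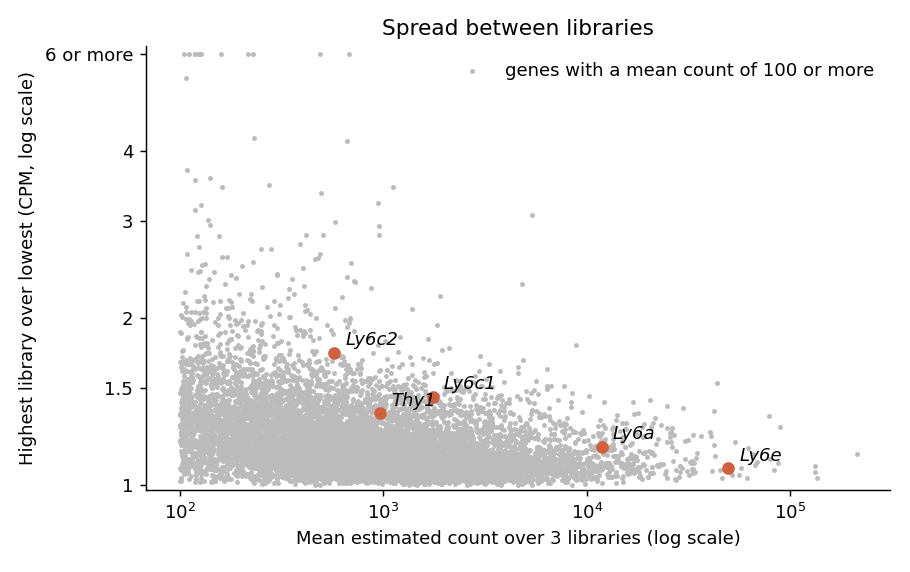
Ratio of the highest to the lowest library in CPM (log scale, values above 6 drawn at 6) against the mean estimated count (log scale) for genes with a mean count of 100 or more (grey), with the 5 members that reach this count in orange. Ly6e and Ly6a lie among genes of like abundance at 1.07 and 1.17, and Ly6c1 and Ly6c2 lie towards the upper edge at 1.45 and 1.74.

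The protein-coding gene whose deviations over the 3 libraries were nearest to those of a member, by Euclidean distance in log2 CPM, was Sec23a for Ly6e (distance 0.00186), Chaf1b for Ly6a (0.00663), Zfyve26 for Thy1 (0.00319), Ythdf1 for Ly6c1 (0.0131) and Ildr1 for Ly6c2 (0.0507). Each profile has 3 points, and the number of near matches varied by member: of 9298 genes compared, 660 were within 0.05 of Ly6e, 233 of Ly6a, 36 of Thy1, 17 of Ly6c1 and 0 of Ly6c2.

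Transcript use was concentrated for most members. The leading transcript Ly6a-201 took 97.4, 97.3 and 98.5% of the gene's TPM, Ly6c2-201 99.5, 98.5 and 99.5%, and Ly6e-215 91.6, 91.5 and 91.6%. Retained-intron transcripts of Ly6e held 4.89 ± 0.232% of its TPM. Ly6k-202 took 100, 90.8 and 87.2%. The other transcript, Ly6k-201, had 0, 8.72 and 4.2 counts with posterior SDs of 3.51, 6.91 and 5.42. The shift between them was thus within the quantifier's uncertainty. Ly6d has 1 annotated transcript.

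Ly6c1 was divided less clearly. Ly6c1-201 took 68.8, 87.3 and 78.4% and Ly6c1-202 26.5, 8.57 and 16.4% of the gene's TPM in libraries 1, 2 and 3. The posterior SD of Ly6c1-202 was 174 counts on an estimate of 401 in library 1 and 211 counts on an estimate of 190 in library 2, so the shift between these transcripts was within the quantifier's uncertainty.

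Thy1 was spread over several transcripts. The short noncoding transcript Thy1-203 (449 bases) took 26.9, 35.2 and 32.2% of its TPM, the short Thy1-204 (446 bases) 24.3, 25.5 and 27.2%, and the longest, Thy1-201 (1735 bases), 16.6, 16.3 and 14.7%. By estimated counts the order was another, since a longer transcript gives more reads per molecule: Thy1-201 held 40.9, 40.3 and 37.3% of the reads and Thy1-203 15.8, 20.6 and 19.4%. The level of Thy1 per length thus depends, by construction, on how its reads were assigned among short and long transcripts.

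The machinery that attaches GPI anchors was expressed throughout. Of 30 listed genes for anchor synthesis and attachment, 29 were annotated and 28 reached 1 TPM in every library, with a list median of 34.6 TPM. The highest were Dpm2 (117 ± 1.13 TPM) and Dpm1 (99.7 ± 9.58 TPM), subunits of the enzyme that supplies mannose, Pigs (115 ± 7.07 TPM), a subunit of the transamidase that joins the anchor to the protein, and Pigx (112 ± 23.3 TPM), a subunit of the first anchor mannosyltransferase. The lowest were Pigw (3.31 ± 0.551 TPM), which acylates the inositol, and Pigz (0.467 ± 0.313 TPM), which adds a side mannose. Between libraries, 11 of the 29 were called, beside 44.9% of all genes tested and 55.4% of genes whose mean count reached 100.

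Other GPI-anchored proteins of lymphocytes gave a scale for the members. Of 13, 10 reached 1 TPM in every library, with a median of 32.1 TPM. Cd52, a short lymphocyte glycoprotein, had 2857, 2481 and 2898 TPM, below Ly6e in each library, and Izumo1r, the folate receptor 4 of regulatory T cells, had 1002, 946 and 962 TPM, below Ly6a in each. Cd48 (430 ± 20.9 TPM), a ligand of the receptor 2B4, and Art2b (242 ± 15.3 TPM), an ADP-ribosyltransferase, followed, and Sema7a (0.333 ± 0.0929 TPM) and Bst1 (0.0600 ± 0.0520 TPM) were lowest. Between libraries, 10 of the 12 tested were called, beside 44.9% of all genes tested and 55.4% of genes whose mean count reached 100.

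Because Ly6e and Ly6a are known interferon-inducible genes, 18 interferon-responsive genes were set beside them. All 18 reached 1 TPM in every library, with a median of 91.3 TPM, and 13 were called between libraries, beside 44.9% of all genes tested and 55.4% of genes whose mean count reached 100. Among the highest were Ifi27l2a (1327 ± 94.0 TPM) and the GTPases Igtp (504 ± 14.5 TPM) and Ifi47 (481 ± 20.99 TPM). The antiviral genes Mx1 (11.2 ± 1.69 TPM) and Rsad2 (5.90 ± 0.895 TPM) were lowest. Whether interferon acted on these cells was not tested.

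The second gene table held far fewer reads for the abundant members. Ly6e had 1060, 1071 and 1054 counts there, 2.14, 1.98 and 2.34% of its estimated counts, and Ly6a 709, 689 and 703, or 5.55, 6.11 and 6.08%. Thy1 had 307, 364 and 308 (36.6, 31.5 and 33.8%), and Ly6k 37, 63 and 24 (84.1, 85.1 and 92.3%). Ly6d had 17, 28 and 23 counts and Ly6g 2, 0 and 0. In the second table Thy1 was above Ly6c1 in every library, both by count and per base of transcript (0.419, 0.497 and 0.433 counts per base for Thy1, against 0.290, 0.345 and 0.308 for Ly6c1), the reverse of their order in TPM, and the cause was not tested.

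Counts of the second table per base of transcript were 0.946, 0.953 and 0.938 for Ly6e and 0.864, 0.840 and 0.857 for Ly6a, against 44.1, 48.2 and 40.1 and 15.6, 13.8 and 14.1 per base in the estimated counts. Among all genes in both tables, the median was 0.983 per base for the 269 genes with a mean estimated count of 10000 or more, and their median ratio of highest to lowest library was 1.03 in the second table and 1.14 in the estimated counts. Of 7 members tested there, 1, Ly6k, was called (chi-square adjusted p = 0.00201), and 23.2% of its tested genes were. How those reads were counted is not given in the sources used here, and the cause of the ceiling was not tested.

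**Figure D5:**
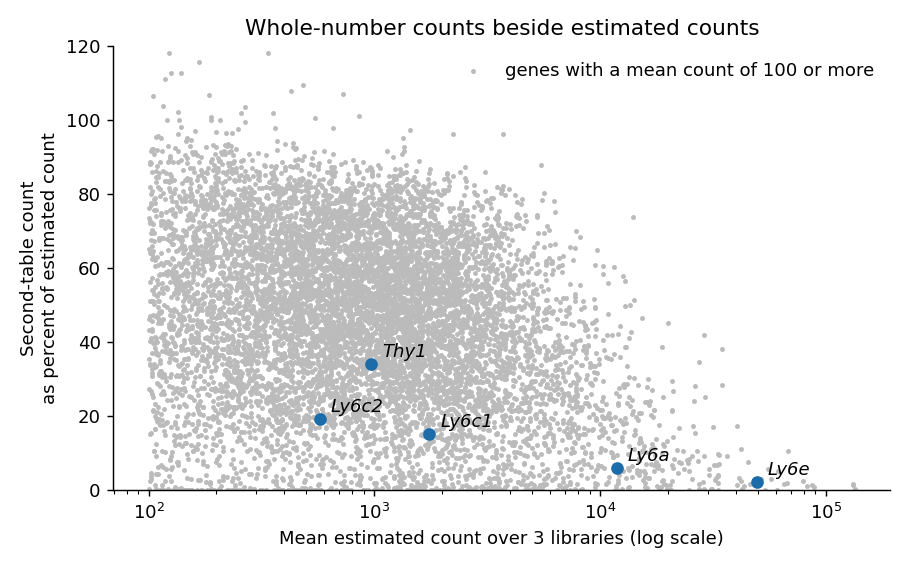
Second-table count as a percent of the estimated count (mean over 3 libraries) against the mean estimated count (log scale) for genes with a mean count of 100 or more (grey, axis ended at 120%), with the 5 members that reach this count in blue. The most counted members have the smallest percentages, 1.98 to 2.34% by library for Ly6e and 5.55 to 6.11% for Ly6a.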

How the data were processed

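Per library, the authors deposited a gene and a transcript table made on mm10 with GENCODE M21 from transcriptome alignments, per the files that describe them. Which aligner, quantifier and strand setting were used is not given in the sources used here. These deposited tables hold expected counts (estimated counts, fractional where reads were divided), TPM, FPKM, each transcript's percent of its gene's TPM, and a posterior SD of the count, a score of the quantifier's own uncertainty. A second deposited table gives whole counts over GENCODE M4, 22457 genes, by a method that is not stated.

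Rows that name no gene, 0.231, 0.271 and 0.189% of estimated counts in libraries 1, 2 and 3, were left out of totals and tests. Depth was 20783676, 21206219 and 18496690 estimated counts, so that 3 counts equal 0.144, 0.141 and 0.162 CPM, and such limits cover counting error only, since without molecular identifiers reads may repeat a molecule. Where a symbol had several genes, the one with the highest mean count was used. Levels are deposited TPM with the SD over 3 libraries, and detection meant 1 TPM in every library. Libraries were compared by a chi-square test (2 degrees of freedom) on rounded estimated counts, where a gene's counts summed to at least 30, called at an adjusted p under 0.05. The test was checked on simulated data that held counting noise only, so the check does not cover repeated reads or other variation between libraries. The members and lists were chosen with earlier results of these data known. Genes named beyond the members followed a rule: LY6/uPAR genes at 1 TPM in every library, the 4 highest and 2 lowest of each other gene list, the 2 highest markers and those with no count, and the nearest profile per member. Gm39556, Gm17189, Ly6i, Csf1r, Adgre1, Itgam, Them6, Lynx1, Cyp11b1 and Cyp11b2 were named after their values were seen. A gene that the rule names is not reported here and stays in every count and median. Alternatives were TMM (edgeR) and DESeq2 scaling, other count minimums, statistic, thresholds, units, pseudocounts, the second table and leaving out each library. Software was Biopython 1.88, scipy 1.17.1, Python 3.11.15, numpy 2.4.6, matplotlib 3.10.9, pandas 2.3.3, DESeq2 1.42.0, edgeR 4.0.16 and R 4.3.3.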

Additional observations from a re-analysis of the deposited data

How the results depend on the processing

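The count of members that differed between libraries was 6 under TMM or DESeq2 scaling, under either count minimum and with the likelihood-ratio statistic. With the Ly6c copies summed, an alternative added after the data were seen, 5 of 6 features were called. The count was 1 in the second gene table, where the counts of the abundant members hardly vary, and 4 to 6 when each library was left out in turn: Ly6a and Ly6k were lost without library 2 and Thy1 without library 1. The members at 1 TPM numbered 7 under each alternative but 5 TPM, where 5 did. The LY6/uPAR genes beyond the members numbered 6 at 0.5 TPM, 0 at 5 TPM, 4 by mean TPM, 0 by FPKM and 2 without any 1 library, against 1 as reported. Members with whole counts numbered 1 by transcript counts, against 4 by gene counts, since reads are also divided among transcripts of a gene. The log2 ratio of Ly6c1 to Ly6c2 lay between 1.25 and 1.83 when each library was left out and was 1.27 in the second table. Of 80 alternatives for single members, 65 moved a value by less than 1 SD. Of these, 48 left out 1 library, which with 3 libraries cannot move a mean by 1 SD. Another 8 only rescaled TPM to annotated genes, so most of the 65 say little about robustness. The other 15 of the 80 were FPKM (6), CPM in the second table (7) and transcript shares by counts (2). No paired analysis was possible because there was 1 group. Depth limits Ly6d, Ly6k and Ly6g most.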

Other observations

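Of the protein-coding genes from Psca to Gpihbp1, 6 of 25 reached 1 TPM in every library, all of them LY6 members. Some neighbours missed the threshold in at least 1 library. Among them, the thioesterase family gene Them6 had 1.53, 1.25 and 0.93 TPM, and the nicotinic receptor modulator Lynx1 1.15, 1.19 and 0.79 TPM. Ly6i, which shared 31 windows with Ly6a-201, had 0.84, 1.29 and 1.07 TPM. The steroid hydroxylase genes Cyp11b1 and Cyp11b2, which lie inside the cluster, had no count.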
